A study of Homo sapiens with 14 samples.

Results

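BPI and 8 other genes of late neutrophil granules and their surface were followed in Kasumi-1, a human cell line from an acute myeloid leukaemia with the AML1-ETO fusion. The genes were BPI, LTF, LCN2, CAMP, MMP8, MMP9, CEACAM6, CEACAM8 and DEFA4. They were read from 10 of the 22215 probe sets on the array that were not controls, and are 9 of 11964 genes named there. The BPI probe set is listed under both BPI and the non-coding RNA LOC149684, and its source accession is listed for BPI in RefSeq. The other 9 were all the probe sets that carried a single listed symbol of the remaining genes, and CEACAM6 had 2 of them. These genes were picked by name, with no threshold on a value, while the differences between AML1-ETO and luciferase siRNA were already known. Those differences are therefore described without a test.

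All cells, controls included, carried the fusion, and every array was taken at 96 h from this 1 cell line. AML1-ETO siRNA went in by nucleofection, an electrical method, at 1.5 µM (3 arrays) and by the siLentFect lipid reagent at 240 nM (3 arrays). An siRNA against firefly luciferase was given as the control by nucleofection (2 arrays) and by lipid (3 arrays) at the same concentrations. There was 1 array of nucleofection without siRNA, and 2 arrays of untransfected cells. Method and siRNA concentration changed together and cannot be told apart. The labels did not say whether replicates were separate cultures, so errors and p-values measure array-to-array spread only, some or all of it possibly technical.

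Neutrophil granules are filled in order as the cell matures. Azurophil granules, with myeloperoxidase and the serine proteases, form first in promyelocytes, specific granules with lactoferrin and cathelicidin form in myelocytes and metamyelocytes, and gelatinase granules form last. BPI, the bactericidal/permeability-increasing protein that binds bacterial endotoxin, and the defensin DEFA4 are stored in azurophil granules but are made late in that stage. LTF (lactoferrin), LCN2 (an iron-siderophore binding lipocalin), CAMP (the precursor of the peptide LL-37), MMP8 (neutrophil collagenase) and CEACAM8 (a surface antigen of granulocytes) belong to specific granules. MMP9 is the gelatinase after which the last class is named, and CEACAM6 is a GPI-anchored adhesion molecule of granulocytes and epithelia. The transcription factor CEBPE is needed for specific granule genes in humans and mice.

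Signals are the deposited MAS5 intensities on a linear scale. Differences are on the log2 scale after values below 20 were raised to 20, which held for 38.3% to 44.2% of the probe sets of an array. Where every array of a group lay under 20, a difference is a bound. A probe set entered the fit when its mean lay in the upper 60% (a mean signal of at least 22.5), and 13329 did. Of the 10 probe sets described here, 5 did, those of BPI, CEACAM6 (2), MMP9 and DEFA4. The others, for LTF, LCN2, CAMP, MMP8 and CEACAM8, are given by their signals. A call means an adjusted p below 0.05 over all probe sets fitted.

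The brightest RUNX1T1 probe set, which reads the fusion partner ETO, averaged 299 ± 41.7 with AML1-ETO siRNA by nucleofection, against 704 ± 83.6 with luciferase siRNA (SD, n = 3 and 2). By lipid it averaged 443 ± 52.9 with AML1-ETO siRNA, against 556 ± 14.4 with luciferase siRNA (SD, n = 3 each). Of 8 myeloid markers of the line that were on the array, 6 lay at or above 20 on all 14 arrays, among them KIT at 1617 to 2297 and MPO at 4784 to 7572, while ANPEP lay under 20 on all of them. Of 7 markers of mature neutrophils, CXCR1 and MME lay under 20 on every array, and 0 reached 20 on all 14. The 3 that entered the fit were CSF3R, FPR1 and FCGR3B. Their geometric means over all arrays, with values below 20 raised to 20, were 69.9, 27.2 and 26.5. For the mean difference between AML1-ETO and luciferase siRNA over both methods, 0 of the 3 that entered the fit were called (0 with an unadjusted p below 0.05), against 1.24% of all.

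BPI gave at least 400.4 on every array with AML1-ETO siRNA and at most 73.1 on every array without it. By nucleofection its signal was 542, 539 and 412 with AML1-ETO siRNA, against 7.85 and 7.18 with luciferase siRNA. By lipid it was 431, 400.4 and 450.0 with AML1-ETO siRNA, against 73.1, 29.8 and 54.5 with luciferase siRNA. The groups did not overlap by either method. The lowest of the 6 arrays with AML1-ETO siRNA was 5.48-fold above the highest of the 8 without it. The gene lies on GRCh38.p14 at chr20:38304156-38337505, and LOC149684 ends 15208 bases before it. In bulk RNA, more cells with BPI transcripts and more transcripts per cell cannot be told apart.

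The group order for BPI was AML1-ETO siRNA by nucleofection (498 ± 74.1, n = 3), AML1-ETO siRNA by lipid (427 ± 25.0, n = 3), untransfected (57.9 ± 9.52, n = 2), luciferase siRNA by lipid (52.5 ± 21.7, n = 3), luciferase siRNA by nucleofection (7.51 ± 0.472, n = 2) and nucleofection without siRNA (5.14, 1 array), with SD as the error. Both AML1-ETO groups overlapped each other, and so did untransfected cells (64.7 and 51.2) and luciferase siRNA by lipid. The 3 nucleofection arrays without AML1-ETO siRNA stood apart from both, all under 10.

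Relative to luciferase siRNA, BPI was 8.68-fold higher with AML1-ETO siRNA by lipid, a log2 difference of 3.12 with a standard error (SE) of 0.26. By nucleofection it was at least 24.7-fold higher (log2 4.63, SE 0.29). Of the 13329 probe sets, that of BPI had the largest fitted difference by either method and for their mean, which was at least 3.87 (SE 0.20). With untransfected cells in place of luciferase siRNA, which shares the AML1-ETO arrays with the comparison above, the difference was 3.10 (SE 0.29) by nucleofection and 2.89 (SE 0.29) by lipid. These last values lie within 1 SE of each other.

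**Figure D1:**
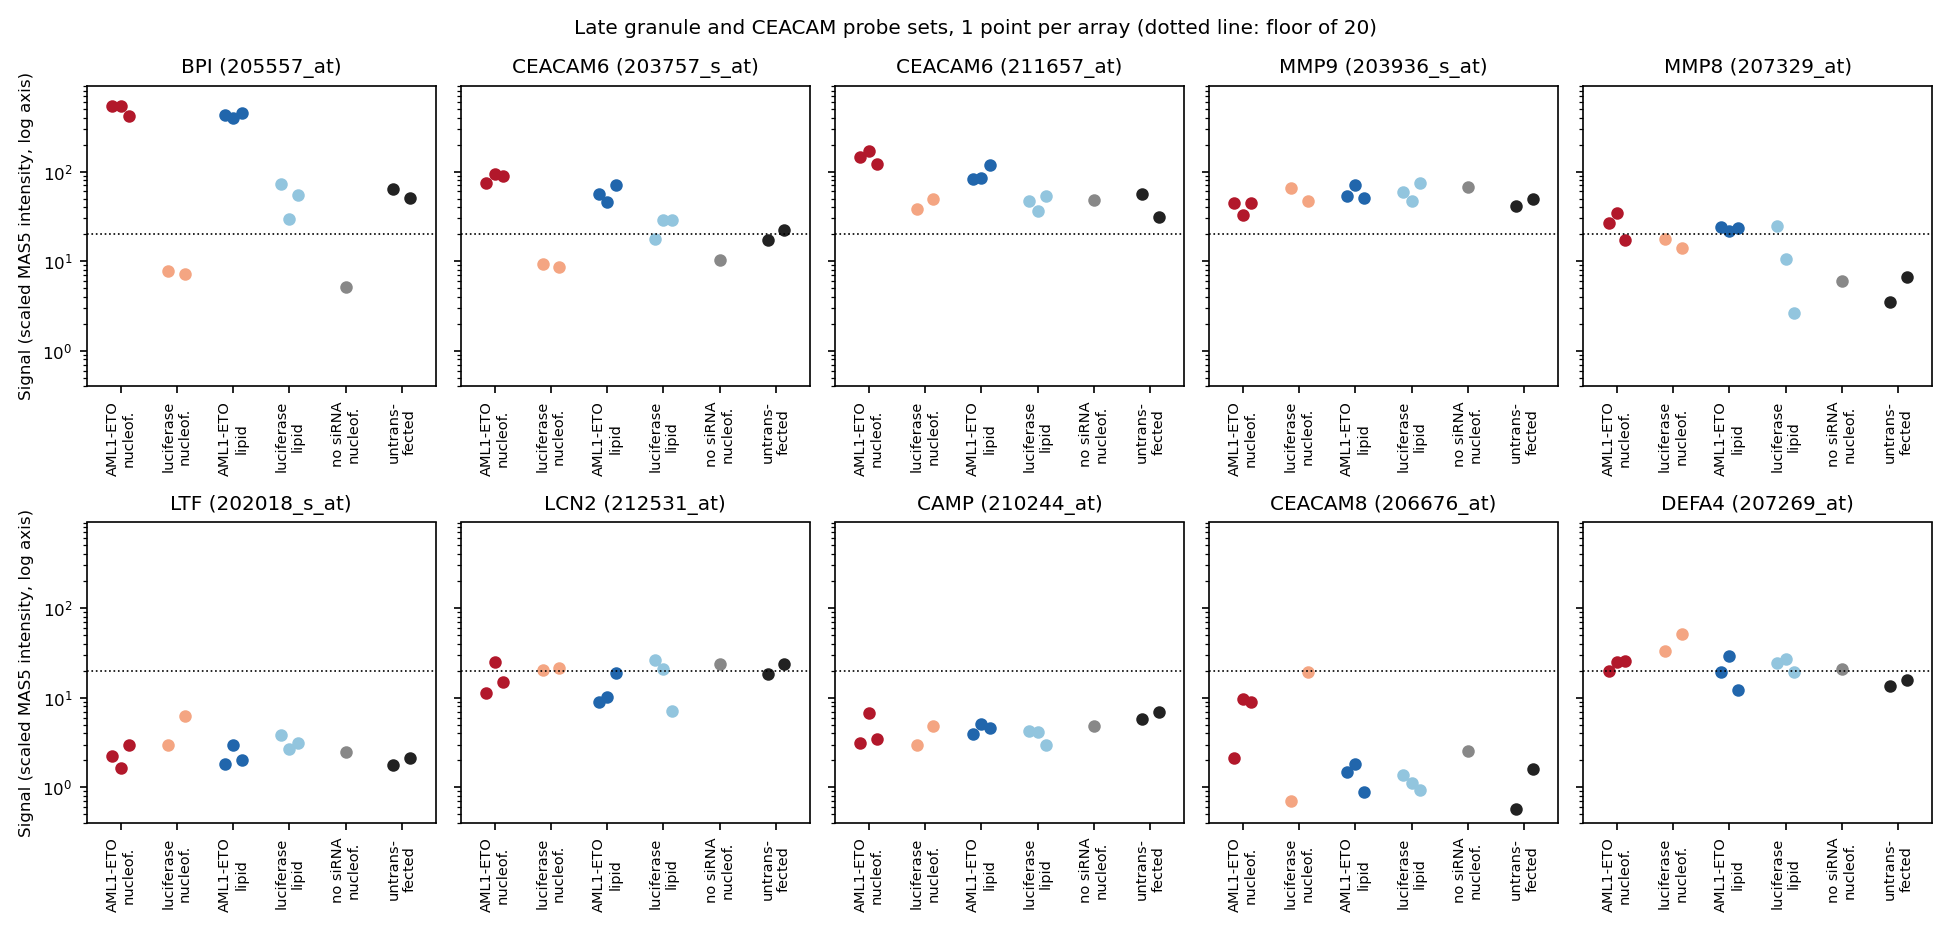
Signal on a log axis for each of the 10 probe sets, with 1 point per array, by group (AML1-ETO and luciferase siRNA by nucleofection, then by lipid, then nucleofection without siRNA and untransfected cells). The dotted line marks 20. BPI and both CEACAM6 probe sets are higher on the 6 AML1-ETO arrays than on the other 8, while LTF, CAMP and CEACAM8 lie under 20 on all 14.

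CEACAM6 was higher with AML1-ETO siRNA on both of its probe sets. On its _at probe set the signals by nucleofection were 146, 169 and 122 with AML1-ETO siRNA, against 38.1 and 49.2 with luciferase siRNA. By lipid they were 83.0, 83.9 and 118 with AML1-ETO siRNA, against 47.5, 36.6 and 52.8 with luciferase siRNA. Untransfected cells gave 56.3 and 31.2 and nucleofection without siRNA 48.2. All 6 arrays with AML1-ETO siRNA were above all 8 without it, and the control groups overlapped one another.

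The other CEACAM6 probe set, _s_at, whose suffix marks probes that can also match related transcripts, was dimmer in the controls. By nucleofection it gave 73.6, 93.4 and 90.1 with AML1-ETO siRNA, against 9.25 and 8.55 with luciferase siRNA. By lipid it gave 55.9, 46.1 and 70.5 with AML1-ETO siRNA, against 17.5, 28.5 and 28.9 with luciferase siRNA. Nucleofection without siRNA gave 10.3, and untransfected cells 17.4 and 22.1. The 3 nucleofection arrays without AML1-ETO siRNA were again the lowest, which was not so on the _at probe set.

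For the mean of both methods the CEACAM6 difference was 1.39 (SE 0.18) on the _at probe set and at least 1.62 (SE 0.15) on the _s_at probe set. By nucleofection it was 1.74 (SE 0.27) and at least 2.09 (SE 0.22), and by lipid 1.05 (SE 0.24) and 1.16 (SE 0.19). CEACAM6 spans chr19:41755530-41772211 on GRCh38.p14. CEACAM8, its close relative on the same chromosome, gave 2.12, 9.73 and 8.90 with AML1-ETO siRNA by nucleofection, against 0.703 and 19.4 with luciferase siRNA. By lipid it gave 1.48, 1.84 and 0.879 with AML1-ETO siRNA, against 1.38, 1.13 and 0.941 with luciferase siRNA. Every CEACAM8 signal was under 20, so no difference is given.

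The 250 bases before the start of CEACAM6 and of CEACAM8 are shown because the pair are related in sequence and only CEACAM6 was above 20 here. They were taken from RefSeq on GRCh38.p14, from chr19:41755280-41755529 (plus strand) and chr19:42594925-42595174 (minus strand), each written 5′ to 3′ along its gene. Capitals mark the RUNX core TGTGGT or TGCGGT on either strand, the letters bound by the AML1 part of the fusion.
CEACAM6: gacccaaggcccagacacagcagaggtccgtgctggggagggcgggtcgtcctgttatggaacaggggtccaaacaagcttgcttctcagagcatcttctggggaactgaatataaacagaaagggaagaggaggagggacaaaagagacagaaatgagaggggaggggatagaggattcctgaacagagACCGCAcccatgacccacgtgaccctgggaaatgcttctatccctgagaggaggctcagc
CEACAM8: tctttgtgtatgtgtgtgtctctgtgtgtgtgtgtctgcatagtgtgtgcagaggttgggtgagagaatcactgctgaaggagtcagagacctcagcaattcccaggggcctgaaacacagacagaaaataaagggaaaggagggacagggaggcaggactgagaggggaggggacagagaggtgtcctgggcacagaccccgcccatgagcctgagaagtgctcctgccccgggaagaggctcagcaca
Aligned end to end, they were identical at 152 of 235 aligned bases (64.7%). CEACAM6 held 1 core, TGCGGT on the reverse strand, which began 60 bases before the start, and these letters were not in the CEACAM8 window. Of 34943 such windows of all genes in the table, 16.3% held either core. Sequence was available for 6 of the 8 genes looked up. Besides CEACAM6, only 1 of the 3 LTF start sites held a core. The ETS core GAGGAA, in 23.6% of all windows, was in those of LTF, CAMP and MMP8. The C/EBP motif TTGCNNAA, in 9.06% of all windows, was in those of LCN2, MMP8 and 1 LTF start site. Such matches describe letters and not binding.

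MMP9, the gelatinase, lay above 20 on all 14 arrays. By nucleofection its signal was 44.2, 33.1 and 44.8 with AML1-ETO siRNA, against 65.1 and 47.5 with luciferase siRNA. By lipid it was 53.3, 71.6 and 50.5 with AML1-ETO siRNA, against 59.6, 46.4 and 74.0 with luciferase siRNA. The AML1-ETO arrays lay under both luciferase arrays by nucleofection, and overlapped by lipid. The difference was −0.46 (SE 0.24) by nucleofection and −0.03 (SE 0.22) by lipid. Untransfected cells, at 41.1 and 50.0, overlapped AML1-ETO siRNA by nucleofection.

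DEFA4, the defensin, was dim. By nucleofection its signal was 20.0, 25.2 and 25.4 with AML1-ETO siRNA, against 33.1 and 51.8 with luciferase siRNA. By lipid it was 19.5, 29.5 and 12.2 with AML1-ETO siRNA, against 24.4, 27.0 and 19.2 with luciferase siRNA. The AML1-ETO arrays were again lower by nucleofection, at −0.82 (SE 0.24), and overlapped by lipid, at −0.05 (SE 0.21). For the lipid value the AML1-ETO signals of 19.5 and 12.2 and the luciferase signal of 19.2 were raised to 20. It ran from −0.28 to 0.04 under alternatives. The nucleofection value was −1.14 without luciferase replicate 1 and −0.50 without luciferase replicate 2. Untransfected cells gave 13.6 and 15.8 and nucleofection without siRNA 20.7, so the luciferase nucleofection pair was the highest of all groups.

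**Figure D2:**
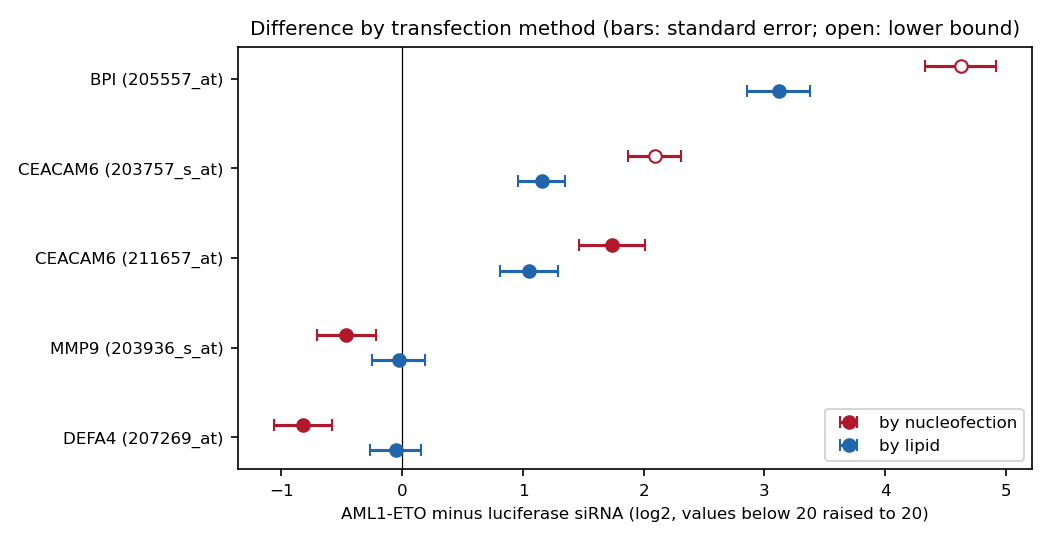
Log2 difference between AML1-ETO and luciferase siRNA by nucleofection (red) and by lipid (blue) for the 5 probe sets that entered the fit, with the SE as bars. Open points are lower bounds, since the luciferase arrays lay under 20. BPI and CEACAM6 lie above 0 by both methods, and MMP9 and DEFA4 lie at or below 0.

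Collagenase MMP8 lay near 20. By nucleofection its signal was 26.5, 34.2 and 17.2 with AML1-ETO siRNA, against 17.6 and 13.9 with luciferase siRNA. By lipid it was 24.0, 21.5 and 23.3 with AML1-ETO siRNA, against 24.8, 10.5 and 2.63 with luciferase siRNA. Untransfected cells gave 3.48 and 6.70 and nucleofection without siRNA 6.03. It reached 20 on 5 of the 6 AML1-ETO arrays and on 1 of the other 8, but the siRNA groups overlapped by both methods.

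The remaining specific granule genes showed no such pattern. LTF gave 1.64 to 2.99 with AML1-ETO siRNA and 1.77 to 6.26 on the other arrays, and CAMP gave 3.11 to 6.74 with AML1-ETO siRNA and 2.93 to 7 on the others. Both were under 20 on all 14 arrays, so a change at such levels could not be measured here. LCN2 ranged from 8.99 to 25.2 with AML1-ETO siRNA and from 7.09 to 26.2 without it, and reached 20 on 1 of 6 and on 6 of 8 arrays.

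The arrays of AML1-ETO siRNA were above those of luciferase siRNA by both methods for 3 of the 5 probe sets that entered the fit, those of BPI and CEACAM6, as for 1.02% of all 13329. MMP9 and DEFA4 had all AML1-ETO arrays below by nucleofection, as had 23.1% of all probe sets. Since the genes were chosen with this comparison known, nothing is read from these counts. The CEACAM6 _s_at probe set entered the fit only through its AML1-ETO arrays, since its mean over the other 8 arrays, after the floor, was 22.2. By rank from the highest fitted mean difference, CEACAM6 was at 26 on the _at probe set, while MMP9 was at 10864 and DEFA4 at 12807.

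**Figure D3:**
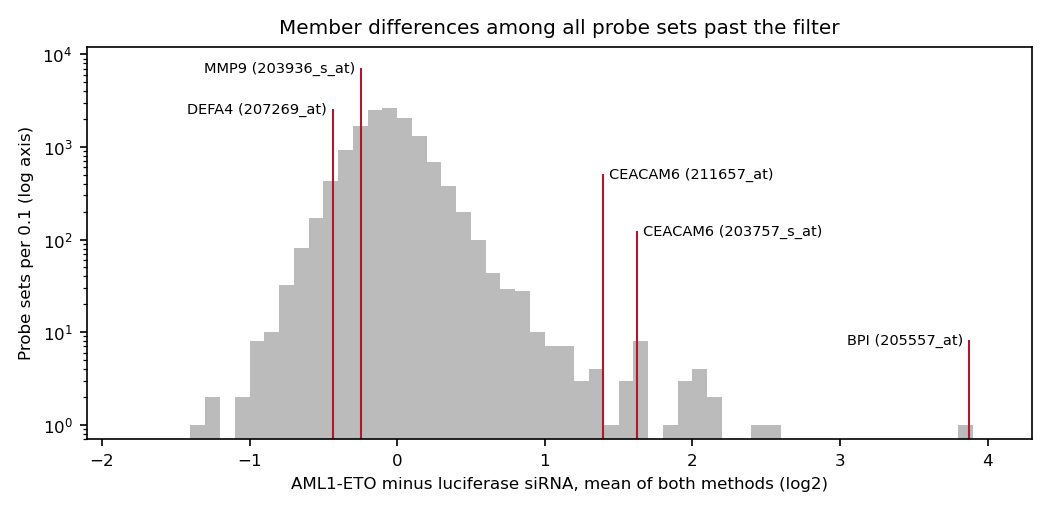
Distribution over 13329 probe sets of the log2 difference between AML1-ETO and luciferase siRNA, averaged over methods, with the number of probe sets per 0.1 on a log axis. Red lines mark BPI at 3.87, CEACAM6 at 1.62 and 1.39, MMP9 at −0.25 and DEFA4 at −0.44.

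The difference was larger by nucleofection than by lipid for BPI, by at least 1.51 (SE 0.39), and for CEACAM6, by 0.69 (SE 0.36) on the _at probe set and at least 0.93 (SE 0.29) on the _s_at probe set. The BPI value followed the floor, at 2.51 (SE 0.41) with a floor at 10 and 0.27 (SE 0.16) with a floor at 64, and was 1.87 without luciferase lipid replicate 2. For BPI the AML1-ETO arrays themselves differed little between methods, by 0.21 (SE 0.26), while with luciferase siRNA BPI was at least 2.46-fold lower by nucleofection than by lipid. Relative to untransfected cells, BPI was at least 2.88-fold lower with luciferase siRNA by nucleofection and on the array without siRNA. With luciferase siRNA by lipid it differed from untransfected cells by −0.23 (SE 0.29). For CEACAM6 on the _at probe set, luciferase siRNA differed from untransfected cells by 0.05 (SE 0.30) by nucleofection and 0.11 (SE 0.27) by lipid.

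Some signs of RNA quality moved with part of this. The log2 ratio of 3′ to 5′ GAPDH signal was −0.18 to −0.11 with AML1-ETO siRNA by nucleofection, against 0.03 to 0.25 with luciferase siRNA. By lipid it was −0.38 to −0.17 with AML1-ETO siRNA, against −0.30 to −0.26 with luciferase siRNA. The same ratio for ACTB overlapped between the siRNAs by nucleofection, at 0.29 to 0.46 with AML1-ETO siRNA and 0.38 to 0.84 with luciferase siRNA. The 18S ribosomal RNA signal was 165 to 525 and 244 to 1409 by nucleofection (AML1-ETO and luciferase siRNA), 8.11 to 49.8 and 15.2 to 58.0 by lipid, 1965 without siRNA and 46.3 to 67.9 in untransfected cells. Their part in the BPI, MMP9 and DEFA4 values by nucleofection was not tested.

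Nucleofection was set against lipid over both siRNAs with equal weight, 5 against 6 arrays. limma called 0 of the 5 probe sets (2 with an unadjusted p below 0.05), against 22.6% of all. The CEACAM6 _s_at probe set is among the 5 but entered the fit only through its AML1-ETO arrays, so nothing is read from its place there. BPI was at −0.54 or lower (SE 0.20, adjusted p = 0.0618, 95% interval −0.97 to −0.12) and DEFA4 at 0.43 (SE 0.16, adjusted p = 0.0704, 0.08 to 0.77). MMP9 was at −0.30 (−0.65 to 0.05), and CEACAM6 at 0.28 on the _at probe set (−0.11 to 0.67) and at most 0.12 on the _s_at probe set (−0.19 to 0.44). The intervals are those of the values after the floor. The BPI value turned on the floor. It was −1.04 with a floor at 10 (adjusted p = 0.00609), 0.07 with a floor at 64 (adjusted p = 0.529), and −0.72 without luciferase lipid replicate 2 (adjusted p = 0.0061). DEFA4 was called without luciferase nucleofection replicate 1 (0.59, adjusted p = 0.0347) or AML1-ETO lipid replicate 2 (0.52, adjusted p = 0.0303).

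The mean of the 4 siRNA groups, 11 arrays, was also set against the 2 arrays of untransfected cells. This mean holds the AML1-ETO arrays on which BPI and CEACAM6 were high, so its values are given without a test. The log2 difference was at most 1.06 (SE 0.25) for BPI. For CEACAM6 it was at most 0.91 (SE 0.18) on the _s_at probe set and 0.77 (SE 0.23) on the _at probe set. It was 0.21 (SE 0.21) for MMP9 and at least 0.43 (SE 0.20) for DEFA4, whose untransfected arrays lay under 20. With a floor at 64 the BPI value was 1.43 and those of CEACAM6 were 0.11 and 0.43, and with a floor at 10 the DEFA4 value was 0.81. The CEACAM6 value on the _at probe set was 1.20 without untransfected replicate 1 and 0.35 without untransfected replicate 3.

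The genes with profiles nearest to that of BPI over all 14 arrays were sought among 8127 genes, by the root mean square difference of log2 signals after each profile was centred on its mean. They were CST7, a cystatin, at 0.75, CTSG, cathepsin G, at 0.79, IGFBP7, a secreted binding protein, at 0.90, SRGN, the granule proteoglycan serglycin, at 0.98, and MS4A3, a membrane protein of myeloid precursors, at 1.09. CEACAM6 was at 1.16 (_s_at) and 1.27 (_at), and MMP9 and DEFA4 were at 2.03 and 2.07, past the 1.90 that a flat profile would have. CST7 had a geometric mean signal of 155 with AML1-ETO siRNA by nucleofection and 161 by lipid, against 20.2 and 43.2 with luciferase siRNA after the floor. CTSG likewise stood at 5717 and 2998 with AML1-ETO siRNA, against 421 and 1199 with luciferase siRNA. For both, as for BPI, luciferase siRNA by nucleofection and nucleofection without siRNA (22.6 for CST7 and 537 for CTSG) were under untransfected cells (43.1 and 1393).

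**Figure D4:**
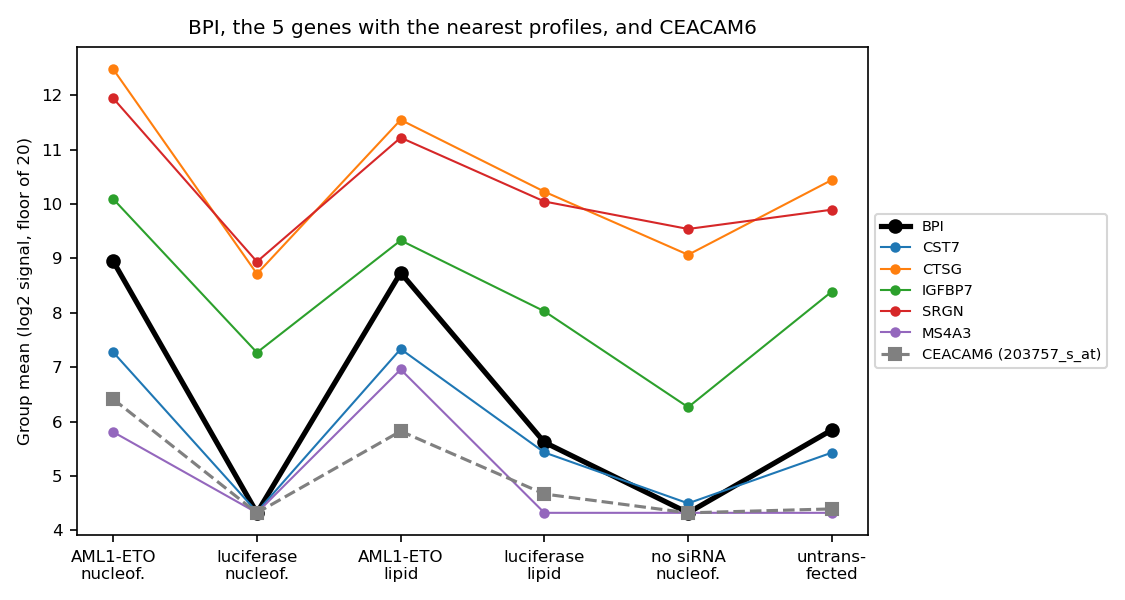
Group means of log2 signal, with values below 20 raised to 20, for BPI, its 5 nearest genes and CEACAM6 (_s_at). Lines only join the points of a gene. In BPI, CST7, CTSG, IGFBP7 and SRGN both nucleofection controls are under untransfected cells and both AML1-ETO groups are above them.

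Other granule genes were read from lists in the same comparison of AML1-ETO with luciferase siRNA, averaged over methods. These lists and those below were chosen with earlier results of these data known, so their calls are a description and not a test. Lysozyme (LYZ) was counted in both granule lists. Of 18 azurophil granule genes, 9 rose and 9 were not called, with a median of 0.48 beside −0.07 for all probe sets and 1.24% of all called. CTSG was higher by 2.54, CST7 by 2.42 and SRGN by 2.09, given without a test since these were also named by likeness to BPI. MPO, at 0.19, and PRTN3, at 0.17, were among the 9 not called. MS4A3 lay at the floor in every group without AML1-ETO siRNA and entered the fit only through the AML1-ETO arrays. Its value of at least 2.06 is given without a test. CTSG, CST7, SRGN and MS4A3 are held in the 9 that rose and in the counts called higher by each method. Nothing is read from their place there. Over the 18 genes the difference lay mostly with nucleofection, where 9 were called higher and the median was 0.85 (2.1% of all called). By lipid the 4 called higher were CTSG, CST7, SRGN and MS4A3 alone, so nothing is read from that count (0.0675% of all called). The median of the list by lipid was 0.10. AZU1 was at 1.94 by nucleofection and 0.31 by lipid. For the difference between methods the only 2 of the 18 called were CTSG and SRGN (0.0525% of all called). Both were named by likeness to BPI, so nothing is read from that count. Over both siRNAs 9 of the 18 were called lower by nucleofection than by lipid, as were 2395 of all 13329 probe sets. The GAPDH ratio given above moved with siRNA by nucleofection, and its part in these values was not tested. Of 26 further specific and gelatinase granule genes on the array, 17 entered the fit and limma called 0 (7 with an unadjusted p below 0.05), with a median of 0.04. ITGB2, the shared chain of leukocyte integrins, was at 0.70 (adjusted p = 0.0837), CYBA, an oxidase subunit, at 0.36, CHI3L1, a chitinase-like protein, at 0.59 and ITGAM, an integrin chain, at −0.40. CHI3L1 entered the fit only through its AML1-ETO arrays, since its mean over the others, after the floor, was 22.0. Of the 26, 6 lay under 20 on every array.

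Among the relatives and partners of these genes, few were called, beside 1.24% of all probe sets. Of 5 genes of the BPI family and of endotoxin recognition, BPIFA1 fell by 0.63 (adjusted p = 0.0277), while TLR2, a receptor of bacterial lipoproteins, was at −0.42 and TLR4, the endotoxin receptor, at −0.14. Of 7 other CEACAM genes and ligands limma called 0 (3 with an unadjusted p below 0.05), the galectin LGALS3 being at 0.51, CEACAM4 at 0.48 and CEACAM3 at −0.25. Of 15 matrix metalloproteinases and inhibitors it called 0 (3 with an unadjusted p below 0.05), with the inhibitor TIMP1 at 0.48 and the gelatinase MMP2 at −0.41. Of 6 antimicrobial peptides and defensins, AZU1, which is also among the azurophil genes, rose by 1.13 (adjusted p = 0.000894), while lysozyme (LYZ) at 0.49 and DEFA5 at −0.47 did not pass. Of 3 receptors and partners of lipocalin, lactoferrin and cathelicidin 0 were called (2 with an unadjusted p below 0.05), and FPR2, a receptor for LL-37, was at −0.50.

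Of 26 transcription factors of granulopoiesis, 2 rose and 24 were not called, beside 1.24% of all probe sets called. CEBPE rose by 0.59 (SE 0.13, adjusted p = 0.0431) and ID2, an inhibitor of E proteins, by 0.96 (SE 0.17, adjusted p = 0.0143). IRF8, a factor of the monocyte lineage, was at 0.68 (adjusted p = 0.0657) and ID1 at −0.51 (adjusted p = 0.0808). These values are means of both methods. Taken by method, 1 of the 26 was called higher by nucleofection (2.1% of all called) and 0 by lipid (0.0675% of all called).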

How the data were processed

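RNA of 14 samples was measured on single-colour oligonucleotide arrays. The authors deposited 1 linear intensity per probe set and array. The submitters' processing notes name MAS5, with no version. The labels give each array's scale factor (0.488 to 1.56), and such scaling hides any change common to most genes. Detection calls were not used here, and the number of arrays limits precision.

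Control probe sets (68) were left out. Names came from the platform annotation, with 19065 probe sets of 1 symbol, 1043 of several and 2107 of none. Probe sets were fitted with limma 3.58.1 in R 4.3.3 (lmFit and eBayes, 6 group means, 14 arrays, 8 residual and 5.05 prior degrees of freedom), and p-values were Benjamini-Hochberg adjusted over 13329 probe sets. List genes were read from their brightest probe set. The named genes were all members, RUNX1T1, the 5 nearest profiles and up to 4 genes per list with the smallest p. KIT, MPO, PRTN3, ANPEP, CXCR1 and MME stand outside that rule and were chosen after their values were seen. The comparison with untransfected cells was planned as a test and is given without one, because it holds the AML1-ETO arrays. The members and lists were chosen with earlier results of these data known. Alternatives changed the scaling, floor, filter, features, variance model, arrays and a replicate block. The steps were tested on simulated data. Sequence was handled in Python 3.11.15 with Biopython 1.88, and figures were drawn with matplotlib 3.10.9.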

Additional observations from a re-analysis of the deposited data

How the results depend on the processing

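The BPI and CEACAM6 differences between AML1-ETO and luciferase siRNA kept their sign in every alternative that could be fitted, from 2.81 (floor at 64) to 4.37 (floor at 10) for BPI and from 0.86 to 1.50 for CEACAM6 on the _at probe set as the mean of both methods. On the _s_at probe set the mean was 0.23 with a floor at 64 and 2.16 with a floor at 10. For nucleofection against lipid, 1 member was called, against 0, under some alternatives, but not always the same one. It was BPI, lower, with a floor at 10, log2 of intensity plus 16, the upper 40% by mean or a mean-variance trend. With a floor at 64 it was the CEACAM6 _s_at probe set, higher, at 0.18. When single arrays were left out 0 to 1 was called, either BPI, lower, or DEFA4, higher. In that comparison the CEACAM6 _s_at probe set turned to −0.35 with a floor at 10 and −0.11 with log2 of intensity plus 16, and BPI to 0.073 with a floor at 64. A floor sets where signals under it stand, so these rest on how the dim control arrays are treated. The count of all probe sets called was 165 for the mean of both methods and 99 to 252 under alternatives, 280 and 126 to 524 by nucleofection, 9 and 4 to 17 by lipid, 7 and 1 to 79 for the difference of these 2, 3007 and 1841 to 3420 between methods, and 2 and 0 to 74 against untransfected cells. Between methods, 612 were higher and 2395 lower, and with quantile normalization 898 and 1034, where the median of all moved by 0.13. For AML1-ETO against luciferase siRNA averaged over methods, 114 were higher and 51 lower, with median-centred arrays 158 and 22, and by nucleofection 172 and 108, with median-centred arrays 273 and 52. DEFA4 and the CEACAM6 _s_at probe set left the fit under some filters, and a fit of siRNA arrays alone gave no comparison with untransfected cells. Same-numbered replicates did not deviate together (correlations of −0.08 to 0.06). With the replicate block, 0 members were called between nucleofection and lipid, as without it. LTF, CAMP and CEACAM8 were under 20 throughout, and their changes could not be measured.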
